A study of Mus musculus with 6 samples.

Results

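The genes described here encode 10 glutathione S-transferases, chosen by name as the pi, alpha, mu and theta class members Gstp1, Gstp2, Gsta2, Gsta3, Gsta4, Gstm1, Gstm2, Gstm3, Gstm6 and Gstt1, out of 15953 genes in the table. The study sequenced messenger RNA of 3 liver samples labelled Cgref1 KO and 3 labelled Wild Type, all of the C57BL/6 strain and all labelled as hepatocytes, and asked how loss of Cgref1 changes hepatic gene expression. The sources used here do not give the age or sex of the mice, the kind of knockout allele or whether each library came from 1 animal. The labels call the 3 samples of a group biological replicates and say no more, so the p-values measure the spread between these samples. Library totals ran from 17649817 to 18366443 estimated counts in the knockout-labelled libraries and from 17627734 to 18185837 in the wild type libraries.

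Glutathione S-transferases are enzymes that join the tripeptide glutathione to electrophilic compounds, among them drug metabolites, epoxides and products of lipid peroxidation, which the cell can then export. The cytosolic enzymes work as dimers and are grouped into classes by sequence. The liver is one of the organs richest in them, and many of their genes are known targets of the oxidant-responsive factor NRF2 and of the nuclear receptors CAR and PXR. In mouse liver the pi class is also known to be more abundant in males.

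The label of the samples and the target gene were checked first. Cgref1 had 7, 12 and 10 counts in knockout-labelled replicates 1, 2 and 3, against 7, 7 and 19 counts in wild type replicates 1, 2 and 3. Its log2 fold change was -0.11 with a 95% interval of -1.23 to 1.01, so the knockout could not be checked from its own transcript, and libraries are named by their labels. Of 10 hepatocyte markers 9 were in the table, all above 1 CPM (counts scaled to library size), led by Alb at 50720 to 69490 CPM in knockout-labelled and 51050 to 80700 CPM in wild type libraries. All 9 Kupffer cell, all 9 sinusoidal endothelial and all 10 stellate cell markers also averaged above 1 CPM, so markers of other liver cells were detected beside those of hepatocytes. The 9 Kupffer markers summed to 274.1 to 287.3 CPM in knockout-labelled libraries and 215.0 to 234.5 CPM in wild type libraries. The 9 cholangiocyte markers, of which 3 averaged at least 1 CPM, summed to 43.1 to 46.3 CPM and 36.4 to 41.7 CPM in the same order of groups. Spp1 led these sums and overlapped between groups, at 22.8 to 31.9 CPM in knockout-labelled and 19.1 to 26.7 CPM in wild type libraries. The part of Kupffer cells and cholangiocytes in the results below was not tested. Sums of stellate cell markers were 327.9 to 386.1 CPM in knockout-labelled and 383.5 to 499.3 CPM in wild type libraries, and sums of sinusoidal endothelial markers were 331.0 to 349.9 CPM and 291.0 to 359.7 CPM in the same order of groups. No marker of any list in the table was at 0 in all 6 libraries. The intestinal markers, of which 11 of 12 were in the table and 2 averaged at least 1 CPM, summed to 75.7, 82.8 and 62.0 CPM in knockout-labelled replicates 1, 2 and 3, against 130.2, 76.0 and 127.0 CPM in wild type replicates 1, 2 and 3. Fabp2, a fatty acid-binding protein gene, made up most of these sums, at 60.5 to 81.4 CPM in knockout-labelled and 73.2 to 121.6 CPM in wild type libraries.

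Gstp1 and Gstp2 are neighbours on the minus strand of chromosome 19, and their coding sequences are shown because few coding bases tell the genes apart. Both coding sequences have 633 bases and were taken from GENCODE M21 (GRCm38), where Gstp1 is coded between 4035473 and 4037863 and Gstp2 between 4040351 and 4042165. They were 98.1% identical, with 12 mismatches. Bases 31 to 330 are shown, with the 10 mismatches that fall there in capitals. Counted from the start codon, the mismatches lay between bases 6 and 330, and the last 303 bases were the same in both genes.
Gstp1: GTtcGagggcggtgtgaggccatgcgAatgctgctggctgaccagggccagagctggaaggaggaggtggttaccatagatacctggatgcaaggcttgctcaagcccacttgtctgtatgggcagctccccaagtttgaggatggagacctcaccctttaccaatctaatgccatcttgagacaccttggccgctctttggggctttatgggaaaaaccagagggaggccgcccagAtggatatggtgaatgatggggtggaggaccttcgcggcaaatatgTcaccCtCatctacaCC
Gstp2: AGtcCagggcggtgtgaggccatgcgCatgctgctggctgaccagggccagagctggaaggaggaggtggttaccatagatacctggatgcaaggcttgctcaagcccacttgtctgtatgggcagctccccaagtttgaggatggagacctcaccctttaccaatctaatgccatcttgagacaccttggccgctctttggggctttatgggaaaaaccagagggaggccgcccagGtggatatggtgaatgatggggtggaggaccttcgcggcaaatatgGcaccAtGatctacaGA

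Other members had a close relative as well, but none among the 10 was as close. Gsta2 was 97.5% identical in its coding sequence to Gsta1, with 14 mismatches, and Gstm1 was 89.5% identical to Gstm3, with 69 mismatches. Gstt1 stood furthest from the rest, at 46.7% to its nearest relative among the 15 sequences compared, which were the 10 members, Gsta1, Gstp3, Gstm4, Gstm5 and Gstm7. Values that were not whole numbers, which arise where reads are divided between genes, were found in all 6 libraries for Gstp1, Gstp2 and Gsta2, in 1 library for Gstm1 and Gstm3, and in 0 libraries for the other 5 members.

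The gene models used by the authors add to the uncertainty of the pi class. In the deposited table Gstp1 spans 4034408 to 4038080 and Gstp2 spans 4035411 to 4042246, so that the models overlap by 2670 bases. In the RefSeq annotation of the same build (GRCm38.p6) they are apart, with Gstp1 at 4035411 to 4037912 and Gstp2 at 4040288 to 4042221. Each of these genes had 2 transcript models in the table. How many reads of the Gstp1 locus were assigned to the Gstp2 model was not tested.

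The 10 genes covered a wide range of levels, compared here in TPM (scaled to transcript length and library size). Gstp1 was the most abundant in every library, at 6352, 5562 and 7318 TPM in knockout-labelled replicates 1, 2 and 3, against 3706, 7124 and 5172 TPM in wild type replicates 1, 2 and 3. It ranked between 17 and 25 among all genes of the knockout-labelled libraries and between 16 and 36 in the wild type libraries. The mu class gene Gstm1 was next, averaging 2672 TPM over the 6 libraries, followed by the alpha class gene Gsta3 with 1875 TPM and the theta class gene Gstt1 with 413.4 TPM. The other 6 genes averaged 29.3 to 185.7 TPM, with Gstp2 lowest. Gstp1 and Gstm1, and likewise Gsta3 and Gstt1, and Gstt1 and Gstm6, did not overlap over the 6 libraries. The ranges of Gstm1 and Gsta3 overlapped across libraries, although Gstm1 was the higher in each of the 6, and from Gstm6 down the ranges of neighbouring genes overlapped throughout.

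**Figure D1:**
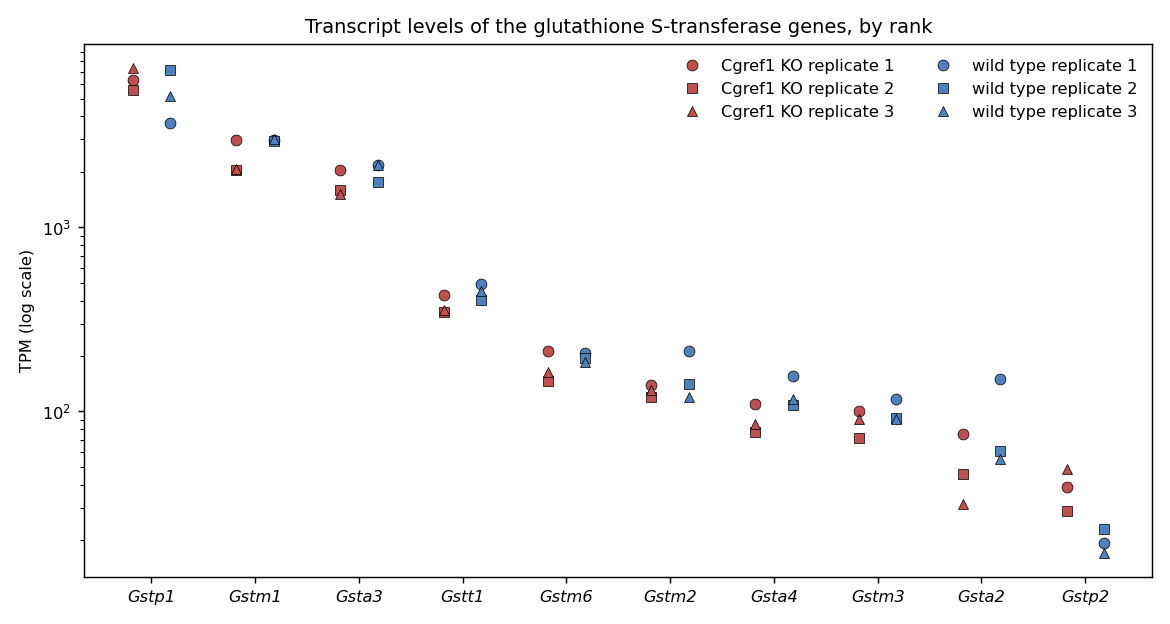
Levels of the 10 glutathione S-transferase genes in TPM on a log axis, ordered by the mean over the 6 libraries, with knockout-labelled libraries (red) to the left of wild type libraries (blue) and 1 symbol per replicate. Gstp1 lies between 3706 and 7318 TPM and Gstp2 between 17.1 and 48.9 TPM.

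Summed over the 10 genes, the levels were 11440 ± 1248 TPM in the knockout-labelled group and 11490 ± 1308 TPM in the wild type group (SD, n = 3 each), a ratio of 0.996. The family took 1.0% to 1.25% of all TPM in knockout-labelled libraries and 1.02% to 1.28% in wild type libraries. Its makeup differed between libraries. Gstp1 alone held 51.0%, 55.4% and 62.0% of the summed TPM in knockout-labelled replicates 1, 2 and 3, against 36.2%, 55.5% and 45.4% in wild type replicates 1, 2 and 3. The groups overlapped in this share, through the high value of wild type replicate 2. The 4 mu class genes summed to 3416, 2390 and 2457 TPM in knockout-labelled replicates 1, 2 and 3, against 3534, 3367 and 3407 TPM in wild type replicates 1, 2 and 3. Knockout-labelled replicates 2 and 3 were below every wild type library in this sum, and knockout-labelled replicate 1 was within the wild type range. TPM sums were not TMM-scaled, so their comparison between groups depends on the unit. On log2(TPM + 1) the median log2 fold change of all genes tested was -0.11, against -0.0022 in edgeR.

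None of the 10 genes passed the threshold, an adjusted p below 0.05 in the quasi-likelihood test of edgeR, adjusted by Benjamini-Hochberg over 12033 genes (0 of 10 members, against 0.00831% of all genes tested, which is 1 gene). All 10 members passed the low-count filter. At an unadjusted p under 0.05 edgeR gave 1 member, Gstp2, against 5.15% of all genes tested; it was higher, as were 2.95% of all genes, and 0 members were lower, against 2.2%. With the replicate number as a block, edgeR again called 0 members, against 0.283% of all genes (34 genes). At an unadjusted p under 0.05 the blocked fit gave 4 members, against 8.63% of all genes: Gstp1 and Gstp2 higher, against 4.5%, and Gsta2 and Gsta4 lower, against 4.14%. DESeq2 called 1 member, again Gstp2, against 0.233% of all genes, and limma-voom called 0. The log2 fold change was positive for 2 members, both of the pi class, and negative for the other 8, whereas 50.5% of all genes tested had negative values. The median of the 10 was -0.11 and that of all genes tested 0.00 (-0.0022); the members' median was -0.02 without wild type replicate 1, -0.19 without wild type replicate 2 and -0.18 without knockout-labelled replicate 1. With wild type replicate 1 or knockout-labelled replicate 2 left out, 4 members in place of 2 had positive values, and without wild type replicates 1 and 3 together 5 did. In bulk tissue, fewer cells of a type and less RNA per cell cannot be told apart.

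Gstp2, the lesser of the pi genes, had 17.0, 13.7 and 22.5 CPM in knockout-labelled replicates 1, 2 and 3, against 8.11, 9.51 and 7.04 CPM in wild type replicates 1, 2 and 3. Every knockout-labelled library was above every wild type library, which held for 1 of the 10 members, against 6.19% of all genes tested. The reverse held for 0 members, against 4.63%, and a gap in either direction was found in 10.8% of all genes. The counts behind these values were 291.48, 234.94 and 407.68 in the knockout-labelled libraries, against 147.39, 178.58 and 128.64 in the wild type libraries. The log2 fold change was 1.11 (SE 0.20, 95% interval 0.67 to 1.55), or 2.15-fold, with an edgeR adjusted p of 0.341. The DESeq2 adjusted p was 0.0009, and the q-value in the authors' deposited table, which also came from DESeq2, was 0.00137 with a log2 fold change of 1.11. The edgeR adjusted p was 0.0975 with the replicate block, 0.118 without the low-count filter and 0.9999 without knockout-labelled replicate 3. The difference itself was between 0.90 and 1.26 on the log2 scale with any 1 library left out. This difference was known from earlier results of these data and is not independent of the choice of Gstp2 as a member.

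Gstp1, the main pi class enzyme of the liver, had 2747, 2603 and 3316 CPM in knockout-labelled replicates 1, 2 and 3, against 1537, 2911 and 2098 CPM in wild type replicates 1, 2 and 3. The groups overlapped, since wild type replicate 2 was above knockout-labelled replicates 1 and 2. The level was 2889 ± 377 CPM in the knockout-labelled group and 2182 ± 691 CPM in the wild type group (SD, n = 3 each), with a log2 fold change of 0.41 (SE 0.22, 95% interval -0.09 to 0.90) and an edgeR adjusted p of 0.974. Leaving out wild type replicate 1, the lowest library, gave 0.20, and leaving out wild type replicate 2 gave 0.68. Without wild type replicates 1 and 3 together it was -0.02.

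Because reads of the pair may be assigned to either gene, the pair was also summed. The sum was 2764, 2617 and 3339 CPM in knockout-labelled replicates 1, 2 and 3, against 1545, 2921 and 2105 CPM in wild type replicates 1, 2 and 3. Its log2 fold change was 0.41 (SE 0.22, 95% interval -0.09 to 0.91), close to that of Gstp1 alone, which supplied nearly all of the counts. Gstp2 made up 0.614% (95% Wilson interval 0.547 to 0.688), 0.522% (0.459 to 0.593) and 0.673% (0.611 to 0.741) of the pair's counts in knockout-labelled replicates 1, 2 and 3. In wild type replicates 1, 2 and 3 its share was 0.525% (0.447 to 0.617), 0.326% (0.281 to 0.377) and 0.334% (0.282 to 0.397). Wild type replicate 1 lay just above knockout-labelled replicate 2, so the groups overlapped in the share while they did not in the level of Gstp2. These intervals cover counting error only and not the error of dividing shared reads.

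**Figure D2:**
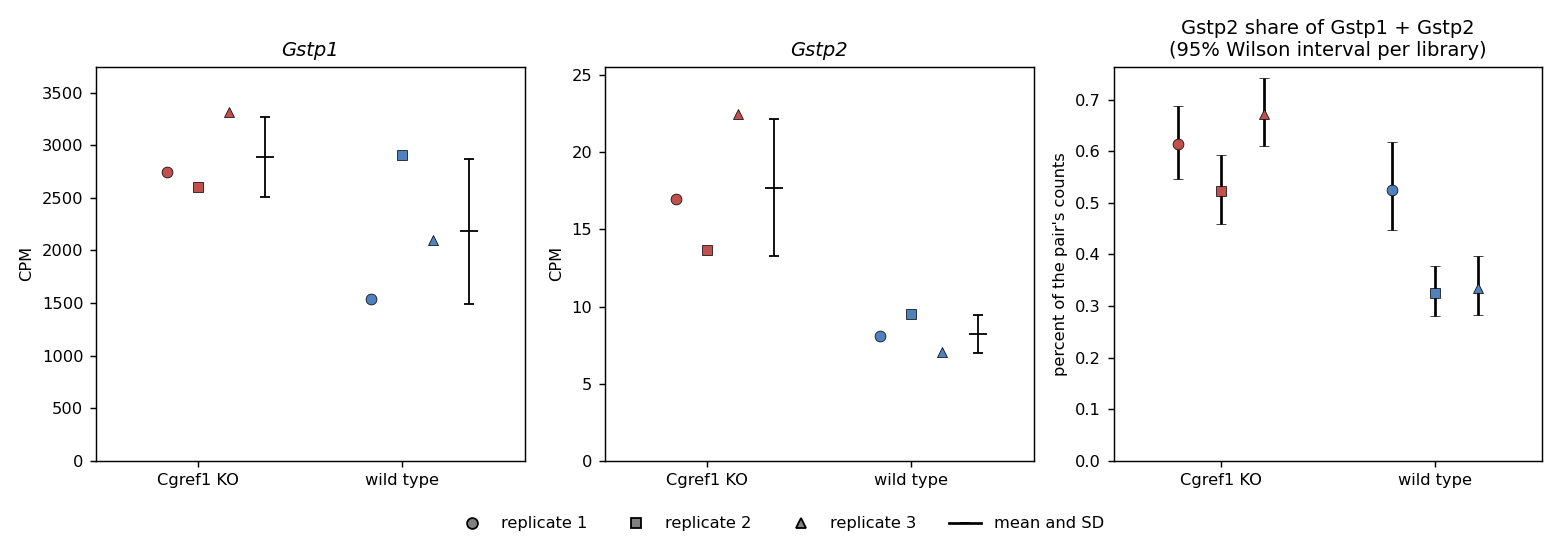
CPM of Gstp1 and of Gstp2, and the share of Gstp2 in the counts of both genes with its 95% Wilson interval, with knockout-labelled libraries on the left of each panel, wild type libraries on the right and the mean with its SD as the black bar for the CPM. Gstp2 lies between 13.7 and 22.5 CPM in the knockout-labelled libraries and between 7.04 and 9.51 CPM in the wild type libraries, while the groups overlap for Gstp1.

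The stretches upstream of the start sites of Gstp1 and Gstp2 are shown because these were the 2 members with positive values. They come from RefSeq (GRCm38.p6), cover the 250 bases before the start on the minus strand, chr19:4037913-4038162 for Gstp1 and chr19:4042222-4042471 for Gstp2, and were 78.1% identical when aligned. Capitals mark matches to TGAGTCA, the AP-1 motif, and GGGCGG, the GC box, sought on both strands; the core of the antioxidant response element, TGACNNNGC, was sought as well.
Gstp1: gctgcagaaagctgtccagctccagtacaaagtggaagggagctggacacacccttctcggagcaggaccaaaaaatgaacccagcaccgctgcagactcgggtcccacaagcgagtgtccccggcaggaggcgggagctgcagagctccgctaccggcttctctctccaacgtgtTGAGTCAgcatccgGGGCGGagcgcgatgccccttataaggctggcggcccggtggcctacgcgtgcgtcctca
Gstp2: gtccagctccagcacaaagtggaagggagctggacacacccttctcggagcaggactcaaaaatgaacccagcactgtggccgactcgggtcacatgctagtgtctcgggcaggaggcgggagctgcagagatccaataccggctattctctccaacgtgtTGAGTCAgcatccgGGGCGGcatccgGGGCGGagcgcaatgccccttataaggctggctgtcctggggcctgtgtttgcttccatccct

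Such a window was in the RefSeq table for 9 of the 10 members, all but Gsta4. TGAGTCA was found in Gstp1, starting 74 bases before the start site, and in Gstp2, starting 89 bases before it, and in no window of the other 7 genes; 4.4% of 27025 promoters of the same length held it. TGACNNNGC was found in Gsta3 alone among the 9 genes, against 10.1% of all promoters. Only this exact form of the antioxidant response element core was sought. Other forms may be present in the windows, those of Gstp1 and Gstp2 included. In the windows of both pi class genes TGAGTCA is followed by gc, a stretch that differs from TGACNNNGC only by G in place of C. Whether this stretch acts as such an element was not tested. GGGCGG was found in Gstp1, Gstp2 and Gstm3, against 32.9% of all promoters. A match describes letters in these windows and not binding in these livers.

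The alpha class genes had lower mean CPM in the knockout-labelled group, none past the threshold, and their groups overlapped. Gsta2 had the widest spread of all members, with 40.6, 26.9 and 17.96 CPM in knockout-labelled replicates 1, 2 and 3, against 77.9, 30.9 and 27.8 CPM in wild type replicates 1, 2 and 3. Wild type replicate 1 stood above all other libraries. A log2 fold change of -0.68 (SE 0.54, edgeR adjusted p 0.988) was found, which was -0.06 without wild type replicate 1, and -1.02 without knockout-labelled replicate 1. Gsta2 was lower in the knockout-labelled library of all 3 same-numbered pairs, with -0.60 and an unadjusted p of 0.00119 in edgeR's blocked fit (adjusted p 0.144). The labels state no such pairing. Wild type replicate 1 also held the most counts of the near-identical Gsta1, with 195.02 against 56.38 and 63.98 in wild type replicates 2 and 3. Gsta1 took 8.6% to 11.6% of the counts of the Gsta1 and Gsta2 pair in knockout-labelled libraries and 8.83% to 12.1% in wild type libraries, so the split between them varied little while their sum varied from 20.2 to 45.9 CPM in knockout-labelled and 31.3 to 88.6 CPM in wild type libraries. The sum of the intestinal markers, most of it from Fabp2, was also high in wild type replicate 1. It was nearly as high in wild type replicate 3, where Gsta2 was low. The part of these markers in the values of Gsta2 was not tested.

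Gsta4, whose enzyme is known for its activity toward 4-hydroxynonenal, a product of lipid peroxidation, had 64.7, 49.7 and 52.9 CPM in knockout-labelled replicates 1, 2 and 3, against 88.2, 60.8 and 64.9 CPM in wild type replicates 1, 2 and 3. Knockout-labelled replicates 2 and 3 were below all wild type libraries, and knockout-labelled replicate 1 was among them. The log2 fold change was -0.35 (SE 0.16, 95% interval -0.71 to 0.0006, edgeR adjusted p 0.962), and -0.18 without wild type replicate 1. Gsta4 was likewise lower in all 3 same-numbered pairs, with an adjusted p of 0.211 in edgeR's blocked fit. Gsta3, the most abundant alpha class gene, had 1870, 1583 and 1439 CPM in knockout-labelled replicates 1, 2 and 3, against 1918, 1512 and 1866 CPM in wild type replicates 1, 2 and 3. The groups overlapped, and the log2 fold change was -0.11 (95% interval -0.42 to 0.19), -0.03 without knockout-labelled replicate 3, -0.06 without wild type replicate 1 and -0.22 without knockout-labelled replicate 1. In mice this gene is known for its part in the detoxification of aflatoxin epoxide.

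The mu class genes stand in a cluster on chromosome 3, where the 4 members lie on the minus strand between 107938847 and 108017973. Gstm1, the main mu class gene, was the steadiest of all members in wild type, and varied more in the other group. It had 2500, 1876 and 1822 CPM in knockout-labelled replicates 1, 2 and 3, against 2437, 2334 and 2378 CPM in wild type replicates 1, 2 and 3, with a coefficient of variation of 18.2% in the knockout-labelled group and 2.18% in the wild type group. Knockout-labelled replicate 1 was above every wild type library and the other 2 were below all of them. The log2 fold change was -0.21 (SE 0.14, 95% interval -0.51 to 0.10, edgeR adjusted p 0.984), and it was -0.37 without knockout-labelled replicate 1 and -0.12 without knockout-labelled replicate 3.

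Gstm2 showed the reverse spread, with 91.5, 85.2 and 90.0 CPM in knockout-labelled replicates 1, 2 and 3, against 135.6, 87.3 and 73.8 CPM in wild type replicates 1, 2 and 3. The knockout-labelled libraries lay within the wild type range, which wild type replicate 1 set at its upper end. Its fold change on the log2 scale was -0.15 (95% interval -0.64 to 0.33) and 0.135 without wild type replicate 1. Gstm3 had 60.4 to 77.7 CPM in knockout-labelled and 66.2 to 86.8 CPM in wild type libraries, and Gstm6 had 116.9 to 156.4 CPM and 128.9 to 148.1 CPM in the same order of groups. Both had log2 fold changes of -0.05, with 95% intervals of -0.36 to 0.25 for Gstm3 and -0.32 to 0.22 for Gstm6. Both turned positive without knockout-labelled replicate 2, to 0.05 and 0.04, and Gstm3 also without wild type replicate 1, to 0.08.

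Gstt1, the theta class member on chromosome 10 (75783813 to 75798584), whose enzyme is known to act on small halogenated compounds, had 282.6, 247.4 and 244.0 CPM in knockout-labelled replicates 1, 2 and 3, against 309.3, 249.1 and 277.1 CPM in wild type replicates 1, 2 and 3. Knockout-labelled replicate 1 lay above wild type replicates 2 and 3, so the groups overlapped. On the log2 scale the fold change was -0.11 (SE 0.11, 95% interval -0.36 to 0.14, edgeR adjusted p 0.988). It ran from -0.18 without knockout-labelled replicate 1 to -0.04 without wild type replicate 1. Like Gsta2 and Gsta4, Gstt1 was lower in the knockout-labelled library of all 3 same-numbered pairs. Its adjusted p was 0.837 in edgeR's blocked fit. The knockout-labelled library was the higher in 3 pairs for Gstp2 and in 2 for Gstp1. It was the higher in 1 pair each for Gsta3, Gstm1, Gstm2, Gstm3 and Gstm6. How many of all genes tested were lower in all 3 pairs was not counted.

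**Figure D3:**
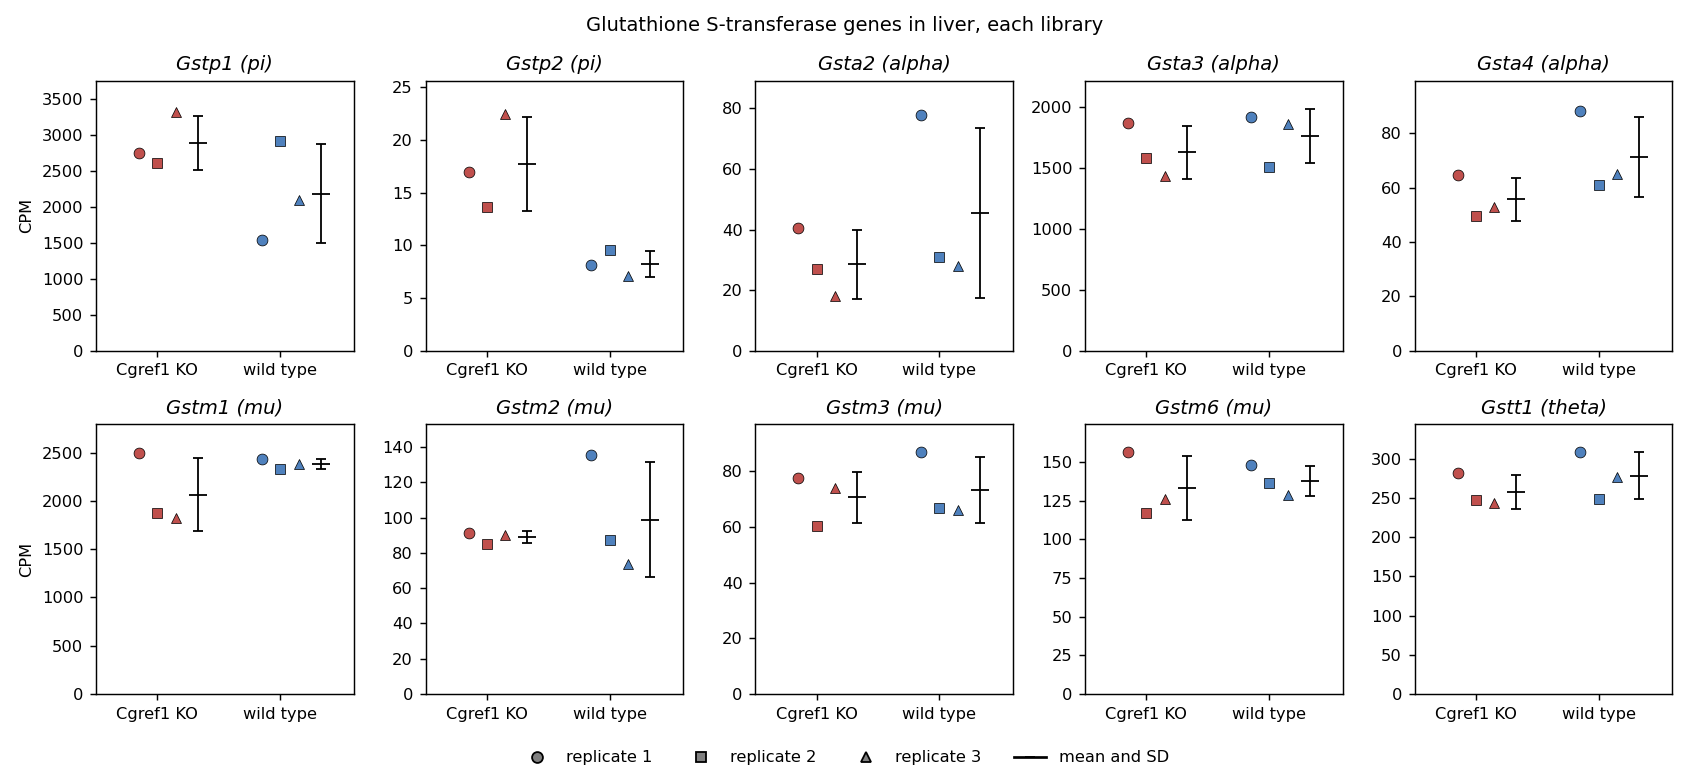
CPM of each of the 10 genes in every library, with knockout-labelled libraries on the left and wild type libraries on the right of each panel, 1 symbol per replicate, and the mean with its SD as the black bar. The groups are apart for Gstp2 and overlap for the other 9 genes, with wild type replicate 1 the highest library for 6 genes.

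The libraries were not alike in the family as a whole. Wild type replicate 1 held the highest CPM for 6 of the 10 genes and the lowest for Gstp1. Knockout-labelled replicate 3 held the lowest CPM for 4 genes and the highest for Gstp1 and Gstp2. Of the 8 genes outside the pi class, 5 were above the wild type mean in knockout-labelled replicate 1, 0 in knockout-labelled replicate 2 and 1 in knockout-labelled replicate 3.

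**Figure D4:**
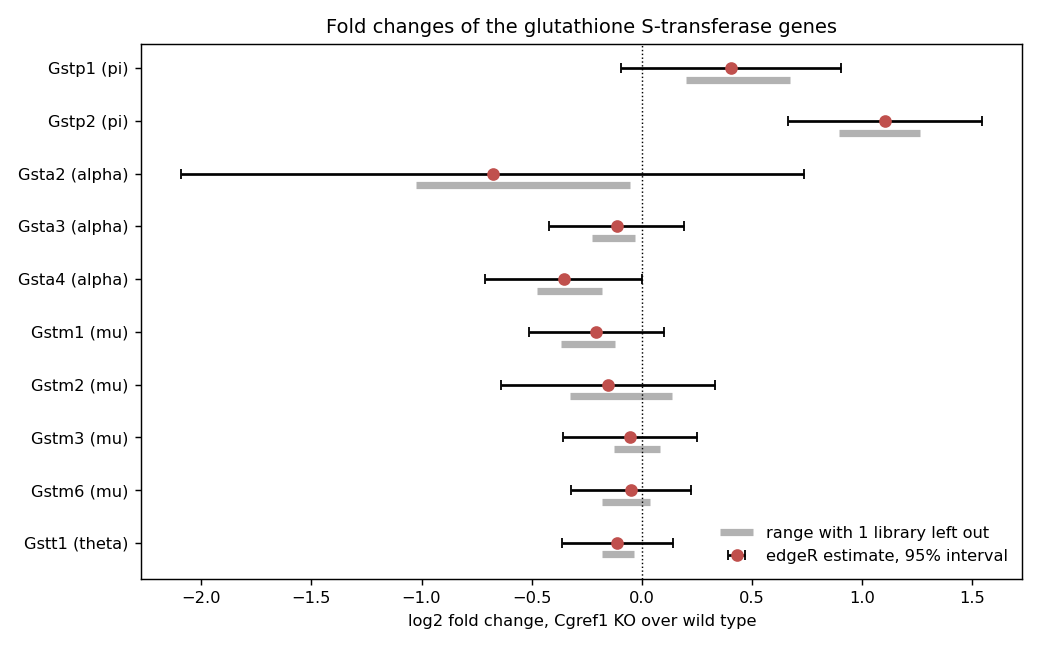
Log2 fold changes of the 10 genes, knockout-labelled over wild type libraries, from edgeR (red points) with 95% intervals (black), and the range of the estimate when each library is left out in turn (grey). The interval of Gstp2 runs from 0.67 to 1.55, and those of the other 9 genes include 0.

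The rest of the glutathione S-transferase superfamily was read from a list of 20 further genes; the table held 17 and 13 passed the filter. None was called (0 higher and 0 lower by edgeR, adjusted), an unadjusted p under 0.05 was reached by 2 genes, both lower (2.2% of all genes tested; 4 in the blocked fit, against 4.14%), and values were negative for 12 of the 13 (50.5% of all genes), with -0.20 as the median log2 fold change. The count of negative values was 8 of 13, with a median of 0.00 (-0.003), without wild type replicate 1, and 7 of 13 without wild type replicates 1 and 3. Gstp3, the third pi class gene of the cluster on chromosome 19, had 13.5, 12.4 and 11.3 CPM in knockout-labelled replicates 1, 2 and 3, against 15.4, 14.7 and 14.7 CPM in wild type replicates 1, 2 and 3. It was chosen after its values were seen: its groups did not overlap, as in 4.63% of all genes tested in this direction, and its sign was opposite to that of Gstp1 and Gstp2, with a log2 fold change of -0.26 (SE 0.12, edgeR adjusted p 0.964). The smallest p-values in the list were those of Mgst3, a microsomal enzyme, at 12.4, 6.80 and 6.33 CPM in knockout-labelled replicates 1, 2 and 3, against 14.9, 11.9 and 13.8 CPM in wild type replicates 1, 2 and 3 (log2 fold change -0.67, SE 0.25), and of the theta class gene Gstt3 (-0.40, SE 0.16). Neither passed, and knockout-labelled replicate 1 lay among the wild type libraries for both. Mgst1, the microsomal enzyme with the highest TPM in the list, had 4325 ± 287 CPM in the knockout-labelled group and 4340 ± 635 CPM in the wild type group (SD, n = 3 each), a log2 fold change of -0.01 with a 95% interval of -0.30 to 0.29.

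Genes that supply and use glutathione showed no called member in edgeR (0 of each list). Of 18 tested genes of glutathione synthesis and turnover the log2 fold change was positive for 6 and negative for 12, with -0.09 as the median. An unadjusted p under 0.05 was reached by 1 of them, against 5.15% of all genes tested (2 in the blocked fit, against 8.63%). It was Pgd, an enzyme of the pentose phosphate pathway that supplies NADPH (-0.44, SE 0.16). Oplah, which recycles oxoproline to glutamate, had 0.17, and the NADPH-producing Idh1 had -0.17. Of 14 peroxidases and reductases 9 were positive (median 0.03, 0 at an unadjusted p under 0.05 and 2 in the blocked fit), with Gpx1, the main cytosolic glutathione peroxidase, at 0.24 (SE 0.11) and Glo1, which removes methylglyoxal, at -0.25. Of 15 genes of conjugate export and mercapturate formation 8 were positive (median 0.08, 0 at an unadjusted p under 0.05), with Nat8 at 0.23 and Nat8f2 at 0.18.

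The lists of known regulators and targets had no called member either without a block (0 of each by edgeR). NRF2 target genes had 5 positive and 12 negative values of 17, with a median of -0.08; Me1, an NADPH-producing malic enzyme that is also lipogenic, had -1.19 (SE 0.36) and Cyp2a5 had 0.43 (SE 0.18), both at an unadjusted p under 0.05. CAR and PXR target genes had 7 positive and 10 negative values of 17, with a median of -0.11, among them Cyp2c55 at -0.82 (SE 0.31), Cyp3a13 at 0.17 and Cyp3a11 at -0.21. AhR target genes had 2 positive and 4 negative values of 6, with a median of -0.08. Among them were Cyp1a2 at 0.50 (SE 0.12) and Cyp1b1 at 0.74 (SE 0.35). Cyp1b1 was low, at 0.70 to 0.94 CPM in knockout-labelled and 0.44 to 0.55 CPM in wild type libraries. Of 21 regulators 13 were positive, with a median of 0.02; Nr1i3, the gene for CAR, had 0.33 (SE 0.15), Nfe2l2, the gene for NRF2, had -0.30 (SE 0.14), and Cebpa had -0.03. At an unadjusted p under 0.05 edgeR gave 2, 1, 1 and 1 members of these lists, in the order given here, against 5.15% of all genes tested, and the blocked fit gave 3, 5, 1 and 7, against 8.63%. Cyp2c55 was called in the blocked fit (edgeR adjusted p 0.0249), as were 0.283% of all genes.

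Lists on liver sex bias and zonation are given beside the pi class. They were chosen with earlier results of these data known, so the counts below are not a test of the lists. The male-biased list holds related genes, several Mup genes among them, so its members are not independent of each other. Of 20 tested male-biased genes the log2 fold change was positive for 16, with 0.44 as the median (14 with log2(TPM + 1)). By edgeR 0 were called, and 3 with the replicate block (C6, C8b and Cyp7b1), where 0.283% of all genes were called. At an unadjusted p under 0.05 edgeR gave 10 higher, against 2.95% of all genes tested, and the blocked fit 12, against 4.5%. C8b, a complement gene, had 0.63 (SE 0.13), Cyp7b1 had 1.14 (SE 0.24) and Mup7 had 0.58 (SE 0.20). The median of the male-biased genes relative to the wild type mean, on the log2 scale, was 0.32, 0.53 and 0.47 in knockout-labelled replicates 1, 2 and 3. It was -0.20, 0.15 and -0.05 in wild type replicates 1, 2 and 3. The lowest and the highest wild type library were the same as for Gstp1. In the knockout-labelled group the order differed, with replicate 2 highest here and lowest for Gstp1. Of 8 tested female-biased genes 1 was lower at an unadjusted p under 0.05 in edgeR, against 2.2% of all genes, and 2 in the blocked fit, against 4.14%. Of these 8 genes 0 were called and 6 had negative values (median -0.81), among them Slc22a26 at -1.34, Acot3 at -1.21 and Cyp2b9 at -1.32. Their median relative to the wild type mean was 0.12, -0.46 and -1.44 in knockout-labelled replicates 1, 2 and 3, against 0.20, -0.37 and 0.52 in wild type replicates 1, 2 and 3, so the groups overlapped and knockout-labelled replicate 3 was lowest. Of a list of 5 genes, Xist and 4 Y-linked genes, the 4 Y-linked ones were in the table and tested, and Xist was not in the table. Eif2s3y stood at 41.8 to 47.0 CPM in knockout-labelled and 39.6 to 61.2 CPM in wild type libraries, so a Y-linked transcript was present in every library of both groups. Uty had -0.25 on the log2 fold change scale. Of 17 pericentral genes 15 were positive (11 with log2(TPM + 1)), with a median of 0.34. By edgeR 0 of them were called, and 2 with the replicate block (Glul and Slc1a2), where 0.283% of all genes were called. At an unadjusted p under 0.05 edgeR gave 8 higher, against 2.95% of all genes, and the blocked fit 9, against 4.5%. The pericentral gene Gulo stood at 0.53, Glul at 0.59 and Cyp2e1 at 0.34. Of 15 periportal genes 6 were positive and 0 called, with a median of -0.06, among them Apoa4 at 0.72, Cdh1 at 0.34 and Alb at -0.20. At an unadjusted p under 0.05 edgeR gave 1 higher and 0 lower, against 2.95% and 2.2% of all genes. The blocked fit gave 2 higher and 2 lower, against 4.5% and 4.14%. The part of sex-biased or zonal expression in the values of Gstp1 and Gstp2 was not tested.

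**Figure D5:**
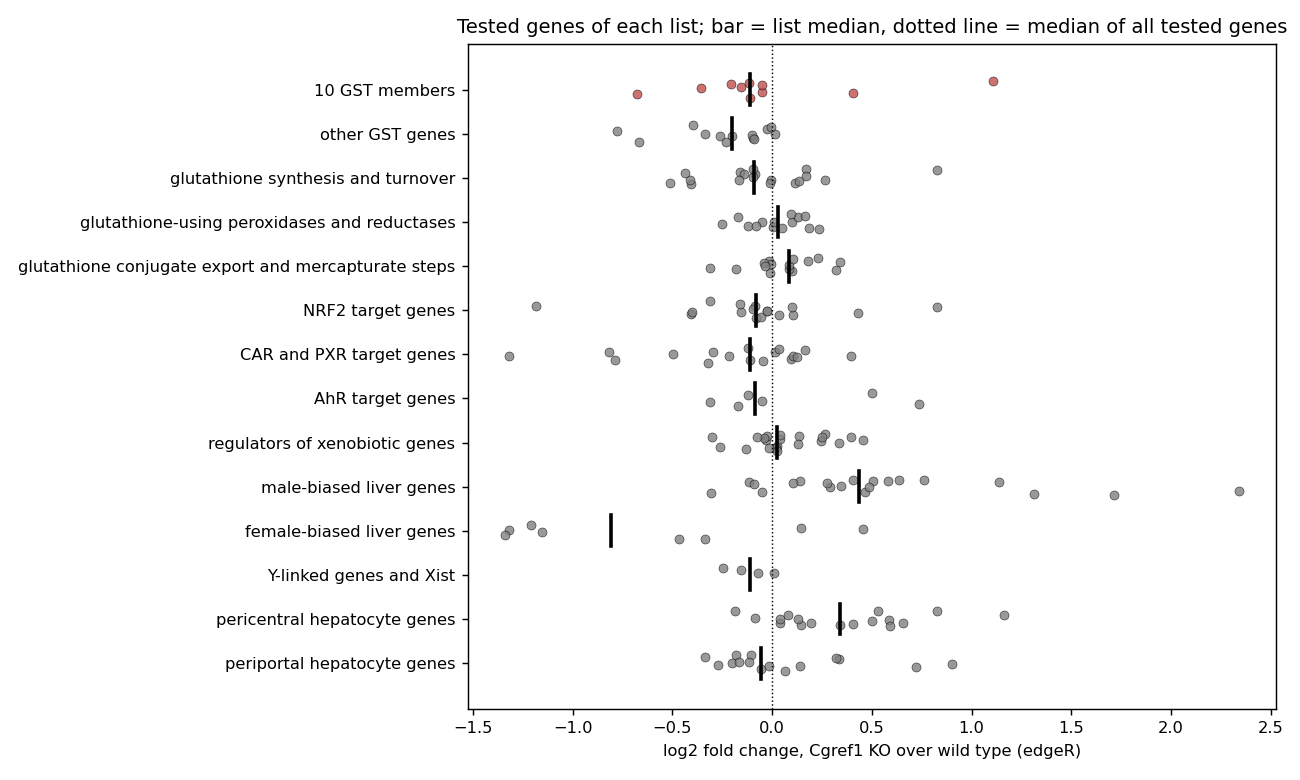
Log2 fold changes, knockout-labelled over wild type libraries, of the 10 members (red) and of the tested genes of each list (grey), with 1 point per gene, the median of each list as a black bar and the median of all genes tested as the dotted line. The members have a median of -0.11 and the male-biased genes one of 0.44.

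The genes whose profile over the 6 libraries was most like that of each pi class gene were sought among 8817 other genes of at least 5 CPM, by the root-mean-square difference of centred log2 CPM. For Gstp1 these were the receptor gene Lrp3 (0.097), Cyp2d9, a cytochrome P450 gene of the male-biased list (0.108), and Ccdc85b (0.123), against a median of 0.391 over all genes ranked. For Gstp2 they were the predicted gene Gm40498 (0.124), the ammonium transporter gene Rhbg of the pericentral list (0.207) and the carboxylesterase gene Ces2c (0.225), against a median of 0.607. Cyp2d9 stood at 1412 ± 106 CPM in the knockout-labelled group and 993.4 ± 213 CPM in the wild type group, and Rhbg at 14.3 ± 4.84 CPM and 6.37 ± 1.64 CPM in the same order of groups (SD, n = 3 each). The likeness is a description over 6 libraries.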

How the data were processed

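Messenger RNA of 3 knockout-labelled and 3 wild type mouse liver samples was sequenced. The submitters' processing notes name HISAT, Bowtie2, RSEM and DESeq2 without versions or settings. The sources used here do not give strand, read length or genome build; 8607 of 15803 genes matched to GRCm38.p6 had the same start there, and 5 of the 10 members had the same span; coordinates are given on that basis as GRCm38. The expected counts deposited by the authors were not normalized, and 92.3% to 92.9% of them in a library were whole numbers. FPKM and TPM values stood beside them, per the file headers. The deposited table also held the authors' DESeq2 comparison (log2 fold change, p-value, q-value), whose sign, compared with the counts, is knockout over wild type. A further 15 columns of group means or single-library comparisons were not used.

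Counts were rounded, filtered with filterByExpr (minimum count 10, 12033 genes left), scaled by TMM factors (0.955 to 1.05) and tested with the robust quasi-likelihood method of edgeR 4.0.16 in R 4.3.3, Benjamini-Hochberg threshold 0.05. CPM use TMM-scaled library sizes. Alternatives were other scalings, DESeq2 1.42.0, leaving the filter out or requiring 5 CPM on average, limma 3.58.1 (voom; trend on log2 of FPKM with a pseudocount of 1 or 0.1, or of TPM with 1), the replicate number as a block, and each library left out. Leaving out wild type replicates 1 and 3 together was chosen after seeing the data. The edgeR fit was tested on simulated data; the alternative tools were not. Same-numbered libraries deviated together from their group means with correlations of 0.418, 0.105 and 0.46 over genes of at least 5 CPM. On this check the blocked fit was given beside the main fit, which has no block. The check used the same counts as the fits, so it cannot show that the samples were paired. The labels state no pairing. Over all genes tested, looked at later with calls already known, the second correlation was 0.06 (0.283 and 0.348 for the others). Blocked values stand beside results they change. Library totals were 17627734 to 18366443 counts, which bounds the counting precision.

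The members and lists were chosen with earlier results of these data known. Named were all members, Cgref1, the 2 smallest p and the highest mean TPM of each list, and the 3 nearest profiles of Gstp1 and Gstp2. The leading gene of marker lists was given for hepatocyte, cholangiocyte and intestinal markers. Coding sequences came from GENCODE M21 and promoters from RefSeq.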

Additional observations from a re-analysis of the deposited data

How the results depend on the processing

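Over 17 alternatives and 1 chosen after seeing the data, Gstp2, Gsta2, Gsta4 and Gstm1 kept the direction of their log2 fold change in all 18, while the median over the members ran from -0.19 to -0.018 with each library left out and was -0.0050 without wild type replicates 1 and 3. The count of genes called by edgeR, 1 with all libraries, was 0 at a mean of at least 5 CPM, 28 by DESeq2, 34 with the replicate number as a block (replicate block), 1 to 5 with each library left out in turn (5 when knockout-labelled replicate 1 was absent) and 0 when wild type replicates 1 and 3 were both absent. DESeq2 called 1 member, Gstp2, and no other alternative called any. The count of members with positive values, 2 with all libraries, was 2 to 4 with each library left out and 5 without wild type replicates 1 and 3. With each library left out, Gstm2 ran from -0.32 to 0.135, Gstm3 from -0.12 to 0.081 and Gstm6 from -0.18 to 0.039. Without wild type replicates 1 and 3, Gstp1 was -0.023, Gsta3 0.095, Gstm2 0.013, Gstm3 0.068 and Gstt1 0.037; the cause was not tested. On log2(TPM + 1) the median of all genes was -0.11 and the 8 members outside the pi class remained below it. The replicate block changed no call of a member. Depth limits Gstp2 most, at 128.64 to 407.68 counts a library.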
